A study of Mus musculus with 18 samples.

Results

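Glycolysis and hypoxia response genes were followed across 18 expression arrays of mouse embryonic fibroblasts. Chosen with earlier results of these data known, the list held 40 genes, taken by name. They were glucose and lactate transporters, glycolytic enzymes, regulators of glycolytic and pyruvate flux, enzymes of glycogen and adenylate metabolism, membrane carbonic anhydrases, subunits of the hypoxia-inducible factors (HIF), the hydroxylases and feedback genes of that pathway, and further genes known to be induced by low oxygen. For each gene the probe set annotated to that symbol alone was used, and the one with the highest mean where a gene had several. This gave values for 38 of the 40 genes, out of 18820 genes measured in the same way. Gpi1 and Eno1 had no probe set of a single symbol and were not analysed here.

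All arrays came from C2 iMEFs, a clone obtained by limiting dilution from fibroblasts transformed with a c-Myc retrovirus. The cells carried Ezh2 flox/Δ and ROSA26-CreERT2, so that Tamoxifen, given as 4-hydroxytamoxifen, activates the recombinase and deletes Ezh2, the catalytic subunit of Polycomb repressive complex PRC2. The time course compared vehicle-treated cells (EtOH) with cells at 5, 18 and 32 days after Tamoxifen. The rescue experiment compared a control (Ezh2 WT) with Ezh2-mutant cells (Ezh2 -/-, here Ezh2 null) and with cells that received a retroviral Flag-tagged Ezh1 or Ezh2 under hygromycin selection, which in the Ezh1 pre-rescue and the Ezh2 pre-rescue preceded loss of the cells' own Ezh2, and in the Ezh2 post-rescue followed it. Each of the 9 groups had 2 arrays. All groups therefore share one Myc-transformed clone. In the time course every Tamoxifen-treated group had also undergone deletion, so the drug and the loss of Ezh2 cannot be told apart there. The same holds for Ezh2 null against control cells, since deletion in this line is induced by the drug. Sample titles and methods name no empty vector for control or Ezh2 null cells. Retroviral infection and hygromycin selection thus cannot be told apart from the added enzyme in the rescue groups. The study takes the time course reference as the starting point, while no label gives the day on which vehicle cells were harvested. The study describes its expression replicates as biological. No source used here says whether they were separate cultures of the clone, so the p-values measure the spread between these arrays.

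Glycolysis splits glucose into pyruvate, and lactate dehydrogenase then turns pyruvate into lactate, which leaves the cell through monocarboxylate carriers. When oxygen is scarce, HIF escapes hydroxylation by the Egln prolyl hydroxylases, pairs with Arnt and binds short DNA elements near its targets, which include most glycolytic genes, Vegfa and Car9. Myc is known to activate many of the same glycolytic genes.

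The promoters of the 5 members that changed at least 2-fold against vehicle or control in any group are shown because the HIF element can be looked for in them. They are the 250 bases before the annotated start of the most upstream RefSeq window (build GRCm38.p6), written 5′ to 3′ on the gene's strand. Capitals mark the letters ACGTG or GCGTG, the core letters of a HIF element, or their reverse complements CACGT and CACGC. The Aldoc window is chr11:78322823-78323072 (plus strand), that of Car9 is chr4:43506776-43507025 (plus), that of Ak4 is chr4:101419039-101419288 (plus), that of Car12 is chr9:66713436-66713685 (plus) and that of Egln3 is chr12:54203875-54204124 (minus). All 5 lie directly before the first base of the gene's annotated transcript.
Aldoc: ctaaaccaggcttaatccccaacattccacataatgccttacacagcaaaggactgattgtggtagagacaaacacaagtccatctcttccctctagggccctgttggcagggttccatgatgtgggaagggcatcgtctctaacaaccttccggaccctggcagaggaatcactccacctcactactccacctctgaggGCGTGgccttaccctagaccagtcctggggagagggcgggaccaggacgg
Car9: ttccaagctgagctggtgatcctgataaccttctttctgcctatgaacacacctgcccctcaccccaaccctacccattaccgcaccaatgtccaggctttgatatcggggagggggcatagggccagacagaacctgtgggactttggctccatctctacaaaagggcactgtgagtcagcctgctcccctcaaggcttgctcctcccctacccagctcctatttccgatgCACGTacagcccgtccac
Ak4: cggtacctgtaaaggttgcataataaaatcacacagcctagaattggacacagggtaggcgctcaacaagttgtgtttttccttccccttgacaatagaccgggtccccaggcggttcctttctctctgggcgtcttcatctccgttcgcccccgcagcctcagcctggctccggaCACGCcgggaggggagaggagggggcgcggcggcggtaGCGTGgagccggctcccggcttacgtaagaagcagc
Car12: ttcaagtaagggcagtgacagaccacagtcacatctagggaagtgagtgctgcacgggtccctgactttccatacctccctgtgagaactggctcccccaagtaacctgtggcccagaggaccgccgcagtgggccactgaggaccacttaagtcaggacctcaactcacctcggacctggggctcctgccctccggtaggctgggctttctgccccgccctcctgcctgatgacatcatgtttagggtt
Egln3: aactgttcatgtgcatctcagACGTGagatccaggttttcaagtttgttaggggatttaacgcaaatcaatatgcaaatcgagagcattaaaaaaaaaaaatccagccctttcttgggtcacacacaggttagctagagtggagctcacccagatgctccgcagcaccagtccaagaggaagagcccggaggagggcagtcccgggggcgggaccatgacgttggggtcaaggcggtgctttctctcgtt

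In these windows the Aldoc match lay 50 to 46 bases before the start, the Car9 match 18 to 14 bases before it and the Egln3 match 229 to 225 bases before it. The Ak4 window held 2 matches, at 74 to 70 and at 36 to 32 bases before the start. The Car12 window held none of these letters. Windows were found for 35 of the 38 measured members, and 26 of the 35 (74.3%) held at least 1 match on either strand. Among the first windows of all genes on the array with a window, 6867 of 14749 (46.6%) did. ACGTG alone was in 45.7% of members' windows and 18.5% of those of all genes on the array, and GCGTG in 51.4% and 36.3%. The palindrome CACGTG, an E-box that Myc can bind and that overlaps ACGTG, was in 8.6% and 7.1%. Of the 13 members that fell at day 5, 10 (76.9%) held a match to ACGTG or GCGTG, and of the other 22 members with a window 16 (72.7%) did. These are counts of letters in a window and not of bound sites.

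The deposited values are log2 intensities, in which a difference of 1 is 2-fold. Array medians were 4.98 to 5.08 in the time course and 6.16 to 6.27 in the rescue experiment, so levels were compared only within an experiment. Replicate arrays correlated at 0.9944 to 0.9985 across the 18820 genes. The single Ezh2 probe set was not lower at an adjusted p under 0.05 at any time. Vehicle arrays read 9.37 and 9.43, day 5 arrays 9.29 and 9.19, day 18 arrays 9.80 and 9.63, and day 32 arrays 9.73 and 9.81. Its change against vehicle was -0.16 at day 5 (adjusted p = 0.259, limma). At day 18 it was higher by 0.32 (adjusted p = 0.02) and at day 32 by 0.38 (adjusted p = 0.0068, limma). Control arrays read 10.36 and 10.56 against 10.46 and 10.48 in Ezh2 null cells. It was thus no check of the deletion, and genotypes follow the labels. The arrays of Ezh2 pre-rescue cells read 12.26 and 11.84 for it, those of Ezh2 post-rescue cells 12.55 and 12.12, and Ezh1 read 11.68 and 11.85 in Ezh1 pre-rescue against 9.50 and 9.82 in control cells. In the time course Ezh1 changed against vehicle by 0.24 at day 5 (adjusted p = 0.0599, limma). It was lower at day 18 by a change of -0.63 and at day 32 by -0.99 (adjusted p = 0.000277 and 1.21e-05, limma). Fibroblast markers lay above the array median for 7 of 8 genes in every group. The blood, epithelial, adipocyte and skeletal muscle lists lay below it for at least 5 of 6, 6 of 6, 4 of 4 and 3 of 4 genes in every group, and 6 of 6 endothelial markers did so in every group except day 5, where 5 of 6 did.

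At day 5 more of the members were lower than higher against vehicle cells. Of the 38 members, 13 fell and 4 rose at an adjusted p under 0.05 in limma (Benjamini-Hochberg over all genes), against 5.72% of all genes that fell and 11% that rose. The median change of the members was -0.17 on the log2 scale, beside -0.005 over all genes. As the list was chosen with earlier results of these data known, these shares and medians are not those of an unselected list. In bulk RNA a change in RNA per cell and a change in the mix of cells cannot be told apart.

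**Figure D1:**
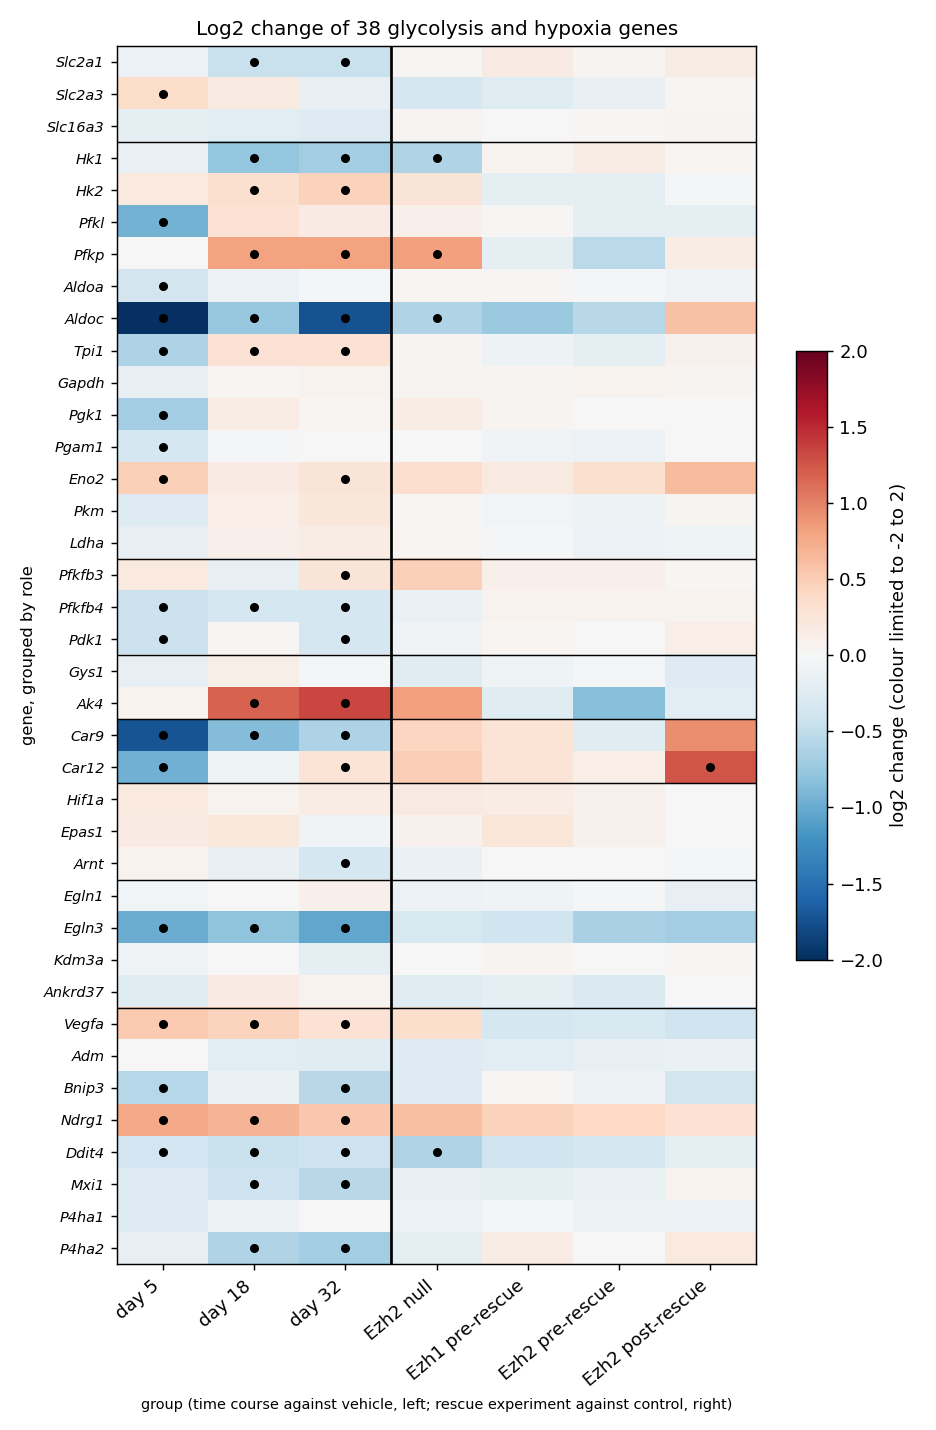
Log2 change of each of the 38 measured genes (rows, grouped by role) against vehicle in the time course (left 3 columns) and against control in the rescue experiment (right 4 columns), as the difference of means of 2 arrays a group. Blue is lower and red higher, with the colour limited to -2 and 2, and a black dot marks an adjusted p under 0.05: 17 dots at day 5, 15 at day 18, 21 at day 32, 4 in Ezh2 null cells, none in either pre-rescue and 1 in Ezh2 post-rescue.

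Aldoc, an aldolase that cleaves fructose 1,6-bisphosphate, moved most. Its log2 values were 10.51 and 10.67 in vehicle cells and 8.05 and 7.87 at day 5. Both day 5 arrays were far below both vehicle arrays, with no overlap. The change was -2.63 ± 0.110 (± SE of the fit, n = 2 arrays a group; adjusted p = 2.86e-06, limma), a 6.19-fold lower level. Car9, a membrane carbonic anhydrase that helps to export acid, read 7.87 and 8.15 in vehicle cells and 6.45 and 6.13 at day 5. These arrays did not overlap either, and the change was -1.72 ± 0.172 (adjusted p = 0.000218, limma), 3.30-fold lower. Aldoc and Car9 were the 2 members past 2-fold, a size that 0.186% of all genes reached on the lower side.

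Along the glycolytic chain, 6 of 13 enzymes fell and 1 rose at day 5. Pfkl, the liver-type subunit of phosphofructokinase, was at 9.0 and 9.15 in vehicle cells and 8.22 and 8.03 at day 5, and fell by 0.95 (SE 0.096; adjusted p = 0.000231, limma). Pgk1, which makes ATP in the payoff steps of the pathway, read 11.35 and 11.31 and then 10.65 and 10.62, a change of -0.70 ± 0.0699 (adjusted p = 0.000218, limma). Tpi1, triosephosphate isomerase, changed by -0.62 ± 0.0692, Aldoa by -0.37 ± 0.0775 and the phosphoglycerate mutase Pgam1 by -0.35 ± 0.0727. In each of these enzymes the day 5 arrays lay below the vehicle arrays. Eno2, the neuronal form of enolase, instead rose, by 0.48 ± 0.0795. It was dim, at 4.78 and 4.84 in vehicle cells and 5.27 and 5.31 at day 5, below the median gene of each array. The other 6 enzymes did not pass the test, with Gapdh at -0.14 ± 0.0706, Ldha at -0.17 ± 0.0703, Pkm at -0.25 ± 0.0801, Hk1 at -0.13 ± 0.103, Hk2 at 0.20 ± 0.0863 and Pfkp at 0.02 ± 0.0824. Of these, Pkm was called lower under quantile normalization, median centring, an intensity trend, a filter on dim genes and the mean over its probe sets. Gapdh and Ldha were called lower under median centring and the intensity trend.

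Some of these genes have several probe sets. All 3 Pgk1 probe sets and all 3 Pgam1 probe sets fell at day 5, but in each gene 2 of the 3 gave the same changes and so count once, whereas the second, dimmer Tpi1 probe set changed by -0.285 and did not pass (adjusted p = 0.223, limma). The 17 Gapdh probe sets changed by -0.274 to -0.103, and 5 of them passed. Transcripts of near-identical copies and pseudogenes of such enzymes may hybridise to the same probes, so values of these genes are uncertain in that respect.

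**Figure D2:**
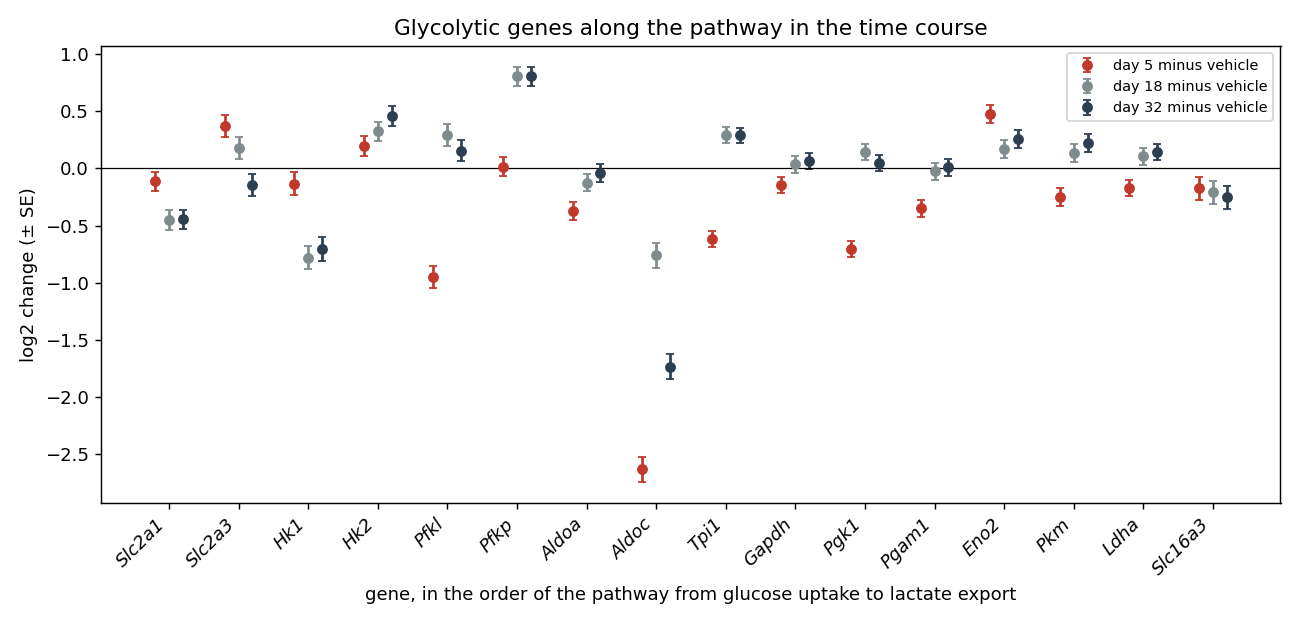
Log2 change against vehicle (vertical axis, mean difference of 2 arrays a group ± SE of the fit) of 16 transporters and enzymes in the order of the pathway from glucose uptake to lactate export, at day 5 (red), day 18 (grey) and day 32 (dark blue). The day 5 points of Pfkl (-0.95), Aldoc (-2.63), Tpi1 (-0.62) and Pgk1 (-0.70) lie below 0, while at day 18 only Slc2a1, Hk1 and Aldoc of these 16 genes had a value below -0.25.

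Among regulators, Pfkfb4, a bifunctional enzyme that sets the level of a phosphofructokinase activator, changed by -0.43 ± 0.0801, and Pdk1, which inhibits pyruvate dehydrogenase, by -0.42 ± 0.0982. The related Pfkfb3 did not pass, at 0.20 ± 0.0805. Of the transporters, the glucose carrier Slc2a3 rose by 0.37 ± 0.0957, and its main fibroblast counterpart Slc2a1 (-0.11 ± 0.0852) and the lactate exporter Slc16a3 (-0.17 ± 0.0998) did not pass. Slc2a3 and Slc16a3 were dim, at 4.76 to 5.37 and 4.25 to 4.67 over the time course, below the median gene of each array. Gys1, the muscle-type glycogen synthase, and Ak4, a mitochondrial adenylate kinase, did not pass, at -0.17 ± 0.0912 and 0.08 ± 0.102.

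Outside glycolysis, hypoxia genes moved in both directions at day 5. The second carbonic anhydrase, Car12, read 7.30 and 7.19 in vehicle cells and 6.30 and 6.27 at day 5, a change of -0.96 ± 0.0800 (adjusted p = 8.34e-05, limma). Egln3, the prolyl hydroxylase that HIF itself induces, read 7.16 and 7.46 and then 6.31 and 6.31, a change of -0.99 ± 0.106 (adjusted p = 0.000312, limma). For both genes the day 5 arrays lay below the vehicle arrays. Bnip3, a mitophagy receptor, changed by -0.58 ± 0.118 and Ddit4, an inhibitor of mTOR signalling, by -0.39 ± 0.0871. The second Bnip3 probe set changed by -0.861. By contrast Vegfa, the vascular growth factor, rose by 0.52 ± 0.0696 (adjusted p = 0.00112, limma), and Ndrg1, a stress-induced gene widely used as a hypoxia marker, by 0.76 ± 0.0878 (adjusted p = 0.000507, limma).

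The HIF subunits did not pass the test at day 5. Hif1a, the oxygen-regulated subunit, was at 10.53 and 10.69 in vehicle cells, 10.92 and 10.70 on day 5, 10.64 and 10.72 on day 18 and, last, 10.76 and 10.74 on day 32. Its day 5 change was 0.20 ± 0.0933 with a 95% interval from -0.01 to 0.41. Epas1, its paralog HIF-2 alpha, read 6.56 and 6.28, 6.40 and 6.78, 6.61 and 6.64 and 6.39 and 6.30 in the same order of groups. Arnt, the constitutive partner, read 10.14 and 10.16, 10.28 and 10.18, 10.09 and 9.92 and 9.82 and 9.78. The Epas1 arrays of day 5 and vehicle overlapped, those of Hif1a at day 5 lay above vehicle, and those of Arnt at day 32 lay below all others. Epas1 never passed the test against vehicle and Hif1a never did either, while Arnt fell by 0.35 at day 32 (SE 0.082; adjusted p = 0.00917, limma). These arrays measure transcripts, and HIF activity is largely set at the protein level. Egln1, the main oxygen sensor, the demethylase Kdm3a, Ankrd37, the vasodilator peptide Adm and the collagen prolyl hydroxylase P4ha1 did not pass at any time against vehicle either. P4ha1 was called lower at day 5 under median centring, quantile normalization, an intensity trend and a filter on dim genes. Median centring and quantile normalization each called Ankrd37 lower at day 5, and Kdm3a and Slc16a3 at day 32. Under median centring Kdm3a and Gys1 were lower at day 5, Slc16a3 at day 5 and 18, and Adm at day 18 and 32. Adm was dim, at 3.22 to 3.79 over the time course. Over the 12 members that passed at no time, the changes against vehicle ran from -0.26 (P4ha1 at day 5) to 0.22 (Pkm at day 32).

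Of the 17 day 5 calls, 11 were kept whichever single array of the comparison was left out. The calls of Slc2a3, Aldoa, Pdk1 and Ddit4 were lost without day 5 replicate 1 (adjusted p up to 0.154, limma). Slc2a3, Aldoa and Pdk1 were also lost without vehicle replicate 1, Ddit4 without vehicle replicate 2, and Slc2a3, Pgam1 and Bnip3 without day 5 replicate 2. Centring each array on its median moved the median of all genes at day 5 to -0.154 and gave 3 members higher and 23 lower. Under that centring and under quantile normalization the call of Slc2a3 was lost. Markers of other cells also moved at day 5: the endothelial genes Tek (1.53) and Pecam1 (0.61) and the adipocyte gene Fabp4 (0.84) rose on the log2 scale, as did 4 of 8 fibroblast markers, Col1a1 (0.79), Col3a1 (0.77), Pdgfra (0.38) and Pdgfrb (0.29). Under median centring 2 fibroblast markers were higher and 2 lower, and the endothelial and adipocyte counts stood at 2 and 1. The mean over the 6 endothelial markers rose from a range of 3.61 to 3.69 over vehicle arrays to 4.01 to 4.04 at day 5, still below the array median. The part of these genes in the day 5 values was not tested.

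By day 18 most of the early loss was no longer seen. Against vehicle 9 members fell and 6 rose at day 18, beside 10.5% and 15.2% of all genes, and the median change of the members was -0.003. Compared directly, 16 members were higher and 5 lower at day 18 than at day 5, where 15.6% and 16.1% of all genes were. The comparisons of the time course share their vehicle, day 5 or day 18 arrays. Markers moved here too: 6 of 8 fibroblast markers were lower at day 18 than at day 5, with changes down to -1.11, as were 2 of 6 endothelial markers, down to -1.55, and 1 of 4 adipocyte markers, at -0.47. Against vehicle, 3 of 8 fibroblast markers were lower and 1 higher at day 18, and 3 were lower at day 32. Their part in the members' values was not tested. Of the 13 members that fell at day 5, 10 then were higher at day 18 than at day 5. The same day 5 arrays enter both tests, which favours such a return, and the share over all genes that fell was not counted. Of these 10, 7 did not pass the test against vehicle at day 18 (Pfkl, Aldoa, Pgk1, Pgam1, Pdk1, Car12 and Bnip3), 2 were still lower (Aldoc and Car9) and Tpi1 was higher. The second Bnip3 probe set was still lower at day 18, by a change of -0.40. Under median centring Aldoa (-0.28) and Car12 (-0.24) were also called lower than vehicle at day 18. Pfkl was instead called higher than vehicle with an intensity trend and with dim genes left out, and Pgk1 with the intensity trend.

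Aldoc gained most between day 5 and day 18. Its arrays read 9.91 and 9.75 at day 18, between those of day 5 and vehicle with no overlap with either. The difference from day 5 was 1.87 ± 0.110 (adjusted p = 2.12e-06, limma), and from vehicle -0.76 ± 0.110 (adjusted p = 0.000799). Pfkl read 9.32 and 9.40 at day 18, above all vehicle arrays, and differed from day 5 by 1.24 ± 0.0958 (adjusted p = 1.08e-05, limma) but not from vehicle at the threshold (0.29 ± 0.0958, adjusted p = 0.0530). With Ak4, described below, these are the 3 members past 2-fold on the higher side between day 5 and day 18, where 2.62% of all genes were. Tpi1 gained 0.91 ± 0.0692, Car12 0.87 ± 0.0800, Car9 0.85 ± 0.172 and Pgk1 0.85 ± 0.0699 over day 5.

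**Figure D3:**
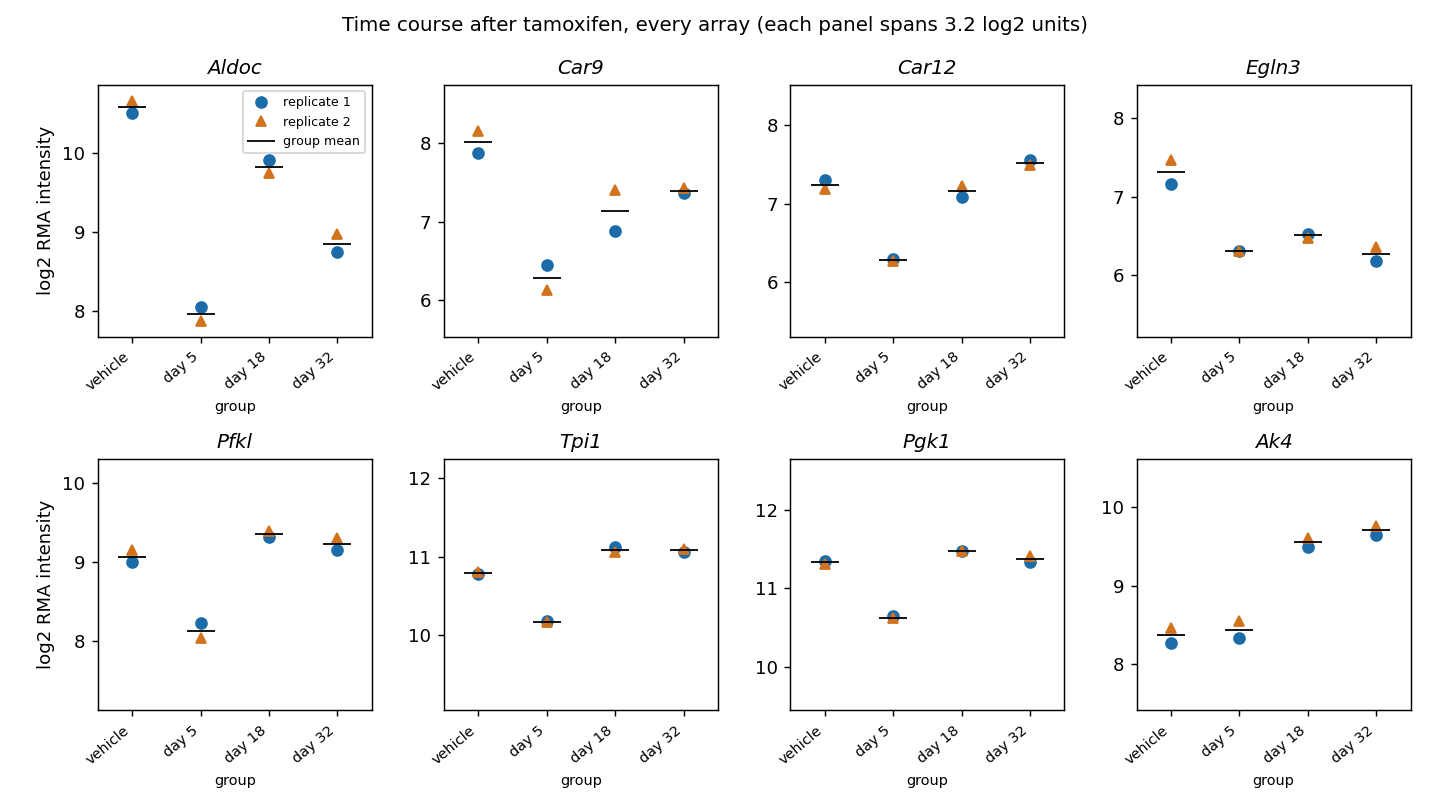
Log2 RMA intensity (vertical axis, each panel spanning the same number of log2 units) of 8 genes in each array of the time course, with a circle for replicate 1, a triangle for replicate 2 and a bar for the group mean. Aldoc, Car9, Car12, Pfkl, Tpi1 and Pgk1 dip at day 5 and are higher at day 18, Egln3 stays below vehicle (-0.99, -0.80 and -1.04), and Ak4 is higher at day 18 and day 32.

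Other enzymes were mostly higher at day 18 than at day 5 as well. Pgam1 (0.32 ± 0.0727), Pkm, the pyruvate kinase (0.39 ± 0.0801), Ldha, lactate dehydrogenase A (0.28 ± 0.0703), and Aldoa (0.25 ± 0.0775) were all higher at day 18, as were Gys1 (0.29 ± 0.0912), Ankrd37 (0.41 ± 0.108), Bnip3 (0.45 ± 0.118) and Pdk1 (0.44 ± 0.0982). In all, 9 of 13 glycolytic enzymes were higher and 2 lower. The 2 lower enzymes were Hk1 and Eno2, and the other members that were lower were Slc2a1, Pfkfb3 and P4ha2. Of the 17 Gapdh probe sets 14 were higher, by 0.178 to 0.426, though the one used here, at 0.18 ± 0.0706, did not pass (adjusted p = 0.0889, limma). Each of the 4 arrays ended at least 1 of the 21 calls when left out, and 10 calls depended on at least 1 array: Slc2a1, Aldoa, Pgam1, Eno2, Ldha, Pfkfb3, Pdk1, Gys1, Ankrd37 and Bnip3. Without day 5 replicate 2 the count was 13, and quantile normalization ended the call of Aldoa.

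A second set of members did not pass the test at day 5 and differed from vehicle at both later times. Ak4, Pfkp and Hk2 rose at day 18 and day 32, and Hk1, Slc2a1, P4ha2 and Mxi1 fell at both. Hk2 and Mxi1 did not pass between day 18 and day 5, so their change is not shown to be late. Mxi1 had changed by -0.26 at day 5 and was called lower there under median centring and quantile normalization. P4ha2 was called lower at day 5 under median centring. Ak4 read 8.27 and 8.46 in vehicle cells, 8.34 and 8.55 on day 5, 9.49 and 9.61 on day 18 and, last, 9.65 and 9.76 on day 32. The late arrays lay above the vehicle and day 5 arrays, and the change against vehicle was 1.18 ± 0.102 at day 18 (adjusted p = 3.5e-05, limma) and 1.34 ± 0.102 at day 32 (adjusted p = 1.08e-05). It was the 1 member past 2-fold on the higher side at each of these times, when 2.1% and 2.57% of all genes were. A second Ak4 probe set changed by 0.69 and 0.92.

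The hexokinase forms moved in opposite directions, and Pfkp rose. Hk1, the hexokinase form of most tissues, read 8.84 and 9.16 in vehicle cells, 8.82 and 8.92 on day 5, 8.23 and 8.21 on day 18 and, last, 8.32 and 8.29 on day 32. It changed by -0.78 ± 0.103 at day 18 (adjusted p = 0.000462, limma) and -0.70 ± 0.103 at day 32. Hk2, the inducible form, changed by 0.32 ± 0.0863 and 0.46 ± 0.0863 at the same times. Pfkp, the platelet-type phosphofructokinase subunit, read 6.95 and 7.05 in vehicle cells, 7.10 and 6.93 on day 5, 7.77 and 7.85 on day 18 and, last, 7.80 and 7.81 on day 32, with no overlap between late and early arrays. It rose by 0.81 ± 0.0824 (adjusted p = 9.27e-05, limma) and 0.81 ± 0.0824 (adjusted p = 6.33e-05).

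Slc2a1, the main glucose carrier of fibroblasts, changed by -0.45 ± 0.0852 and -0.45 ± 0.0852. P4ha2, which hydroxylates collagen, changed by -0.61 ± 0.0806 and -0.69 ± 0.0806, and Mxi1, an antagonist of Myc, by -0.41 ± 0.0817 and -0.55 ± 0.0817. The second, dim Mxi1 probe set changed by -0.13 and -0.24 and did not pass. Of the 15 day 18 calls, 3 were lost with 1 array left out: Hk2 without vehicle replicate 1 or day 18 replicate 2, Tpi1 without day 18 replicate 1, and Pfkfb4 without vehicle replicate 1 or day 18 replicate 1 (adjusted p up to 0.146, limma). Median centring gave 4 members higher and 16 lower at day 18 and ended the calls of Hk2 and Tpi1. Quantile normalization also ended that of Hk2.

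At day 32 the members' changes against vehicle were 9 higher and 12 lower, beside 18.4% and 14.2% of all genes, with a median of -0.017. Aldoc had declined again. Its day 32 arrays read 8.74 and 8.97, below both day 18 arrays, with a difference of -0.98 ± 0.110 from day 18 (adjusted p = 0.00196, limma) and of -1.74 ± 0.110 from vehicle (adjusted p = 3.75e-06), 3.33-fold lower. Egln3 read 6.53 and 6.48 at day 18 and 6.18 and 6.36 at day 32, below all vehicle arrays, with a change against vehicle of -1.04 ± 0.106 (adjusted p = 6.19e-05, limma). Aldoc and Egln3 were the 2 members past 2-fold on the lower side, where 1.66% of all genes were. The carbonic anhydrases had parted by then. Car9 read 6.88 and 7.40 at day 18 and 7.36 and 7.43 at day 32, below both vehicle arrays, with changes of -0.87 ± 0.172 and -0.62 ± 0.172 against vehicle. Car12 read 7.09 and 7.23 and then 7.55 and 7.49, the later arrays above vehicle, with changes of -0.09 ± 0.0800 and 0.28 ± 0.0800. Pfkl, at 9.15 and 9.31 on day 32, lay at or above the vehicle arrays, and its change of 0.16 ± 0.0958 did not pass (adjusted p = 0.258, limma).

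Between day 18 and day 32, 2 members were higher and 1 lower, beside 1.4% and 2.75% of all genes. Pfkfb3 was higher by 0.42 ± 0.0805 and Car12 by 0.37 ± 0.0800, and Aldoc was lower. The calls of Pfkfb3 and Car12 were each lost without any 1 of the 4 arrays (adjusted p up to 0.251), which left 1 member. With replicates blocked, the call of Car12 was lost too (adjusted p = 0.0592, limma).

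Over all 3 times, Aldoc, Pfkfb4, Car9, Egln3 and Ddit4 were lower than vehicle at each, and Vegfa and Ndrg1 were higher at each. Pfkfb4 changed by -0.43, -0.35 and -0.33 at day 5, 18 and 32, and Ddit4 by -0.39, -0.45 and -0.41. Vegfa changed by 0.52, 0.44 and 0.29 and Ndrg1 by 0.76, 0.68 and 0.54. In all, 26 members passed the test at some time and 12 at none. The shares of all genes that passed at some time, or in the same direction at every time, were not computed. Of the 21 day 32 calls, 9 were lost without at least 1 array (adjusted p up to 0.227), those of Tpi1, Eno2, Pfkfb3, Pfkfb4, Pdk1, Car9, Car12, Arnt and Vegfa, and without day 32 replicate 2 the count was 13. The arrays concerned were vehicle replicate 1 (Eno2, Pfkfb3, Pfkfb4, Pdk1 and Vegfa), vehicle replicate 2 (Eno2, Car9 and Car12), day 32 replicate 1 (Pfkfb4, Pdk1, Car9, Car12 and Vegfa) and day 32 replicate 2 (all except Pdk1). Median centring gave 4 higher and 16 lower and quantile normalization 6 higher and 14 lower. Eno2, Pfkfb3 and Car12 lost their calls under both, and Tpi1 and Vegfa under median centring.

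Neighbouring pathways were read from lists of further genes. Of 25 further glycolysis genes, 4 fell (11 under median centring) and none rose at day 5, among them the muscle-type enolase Eno3 (-0.49 ± 0.0914), the muscle-type phosphofructokinase Pfkm (-0.32 ± 0.0726) and the liver and red cell pyruvate kinase Pklr (-0.35 ± 0.0938). At day 32, 5 rose and 4 fell (4 and 8 under median centring, 4 and 6 under quantile normalization), with the lactate and pyruvate carrier Slc16a1 at 0.88 ± 0.0727, Pdk2, a further inhibitor of pyruvate dehydrogenase, at -0.79 ± 0.0826 and the mitochondrial glycerol phosphate dehydrogenase Gpd2 at 0.58 ± 0.0889. Of 39 further hypoxia genes, 10 rose and 4 fell at day 5, and those of smallest adjusted p were the endoplasmic reticulum oxidase Ero1a (0.82 ± 0.0881), the heme oxygenase Hmox1 (0.82 ± 0.102) and the secreted glycoprotein Stc2 (0.76 ± 0.0850). Under median centring 10 rose and 10 fell at day 5. At day 18, 5 rose and 3 fell (3 and 12 under median centring), and Arnt2, the paralog of Arnt, rose by 1.69 ± 0.133 (adjusted p = 2.04e-05, limma). At day 32, 9 rose and 12 fell (6 and 15 under median centring), among them Stc2 at 0.89 ± 0.0850, Arnt2 at 1.17 ± 0.133 and the cyclin Ccng2 at -0.69 ± 0.0832.

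Mitochondrial genes were higher late in the time course, to an extent that depended on the scaling. Of 19 citric acid cycle genes, none rose and 1 fell at day 5, 7 rose and none fell at day 18, and 11 rose and 1 fell at day 32. Under median centring none rose and 8 fell at day 5, 2 rose and 1 fell at day 18, and 6 rose and 2 fell at day 32. Idh3a, a subunit of isocitrate dehydrogenase, changed by 0.42 ± 0.0730 at day 18 and 0.72 ± 0.0730 at day 32. Of 24 respiratory chain genes, none rose and 2 fell at day 5, 10 rose and 1 fell at day 18, and 15 rose and 1 fell at day 32. Under median centring none rose and 11 fell at day 5, 4 rose and 1 fell at day 18, and 7 rose and 1 fell at day 32. Quantile normalization gave 0 and 5, 9 and 1, and 15 and 1 at these times. The median change at day 32 was 0.269 for the citric acid cycle and 0.263 for the respiratory chain, beside -0.018 over all genes, and 0.149 and 0.144 under median centring, beside -0.137. Cyc1, a cytochrome of complex III, rose by 0.86 ± 0.0861 and the electron carrier cytochrome c, Cycs, by 0.64 ± 0.0801 at day 32. Against day 5, 11 of the 19 and 15 of the 24 were higher at day 18 and none lower. Of 6 pentose phosphate genes, Pgd fell at day 5 (-0.47 ± 0.0733) and Rpia rose at day 18 (0.54 ± 0.0951) and day 32 (0.74 ± 0.0951). Of 6 gluconeogenesis genes, Fbp1, the fructose bisphosphatase that opposes phosphofructokinase, changed by -0.87 ± 0.252 at day 5, -2.46 ± 0.252 at day 18 and -1.89 ± 0.252 at day 32. All of these shares stand beside the percentages of all genes given above for the same comparisons.

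In the rescue experiment few of the members differed between Ezh2 null and control cells. Against control, 1 member rose and 3 fell in Ezh2 null cells, beside 1.2% and 0.755% of all genes, and the members' median change was 0.021. Pfkp rose, from 7.42 and 7.41 in control to 8.15 and 8.32 in Ezh2 null arrays, a change of 0.82 ± 0.131 (adjusted p = 0.0267, limma). Hk1 fell, from 9.48 and 9.64 to 8.90 and 9.0, a change of -0.61 ± 0.0818 (adjusted p = 0.0147). Aldoc fell from 11.02 and 11.22 to 10.47 and 10.57 (-0.60 ± 0.108, adjusted p = 0.0385, limma) and Ddit4 from 10.00 and 9.87 to 9.34 and 9.32 (-0.61 ± 0.100, adjusted p = 0.0291). For all 4 genes the 2 groups did not overlap. Each of these 4 had also passed at day 32 in the same direction in the time course. How many of all genes called in Ezh2 null cells did so was not counted.

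Pfkfb3 had a change of 0.48 ± 0.0947 that did not pass (adjusted p = 0.0543, limma), although its Ezh2 null arrays lay above those of control. It passed without the replicate block (adjusted p = 0.0248), which with the loss of Aldoc made 2 members higher and 2 lower, and under quantile normalization (adjusted p = 0.0335), which made 2 higher and 3 lower. Ak4 had a change of 0.82 ± 0.265 (95% interval 0.20 to 1.43) that did not pass (adjusted p = 0.191, limma), with control arrays at 10.07 and 9.07 spread more widely than the Ezh2 null arrays at 10.23 and 10.55. Car9 read 7.78 and 7.94 in control and 8.02 and 8.56 in Ezh2 null arrays (0.44 ± 0.170), Egln3 8.13 and 8.10 and then 7.62 and 7.96 (-0.32 ± 0.115), and Pfkl 9.84 and 9.61 and then 9.65 and 10.00 (0.10 ± 0.149). Car12 differed by 0.50 ± 0.137. None of these passed. The Pfkl arrays overlapped between the groups and those of the other genes did not, but the share of all genes without overlap was not counted. The HIF subunits did not pass: Hif1a read 11.16 and 11.28 in control and 11.43 and 11.36 in Ezh2 null arrays, Epas1 6.65 and 6.68 against 6.93 and 6.58, and Arnt 10.70 and 10.86 against 10.73 and 10.55. The Epas1 and Arnt arrays of both groups overlapped, and the Hif1a arrays of Ezh2 null cells lay slightly above those of control. Pgk1, Tpi1, Gapdh, Pkm and Ldha had differences of 0.14, 0.06, 0.06, 0.02 and 0.02. All 4 calls depended on at least 1 array. Without Ezh2 null replicate 2 no member was called, and without control replicate 1 or control replicate 2 there were 2. Aldoc was lost without any 1 of the 4 arrays and without the replicate block (adjusted p = 0.0577), Hk1 without Ezh2 null replicate 2, Pfkp without that array or either control array, and Ddit4 without control replicate 1 or either Ezh2 null array.

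**Figure D4:**
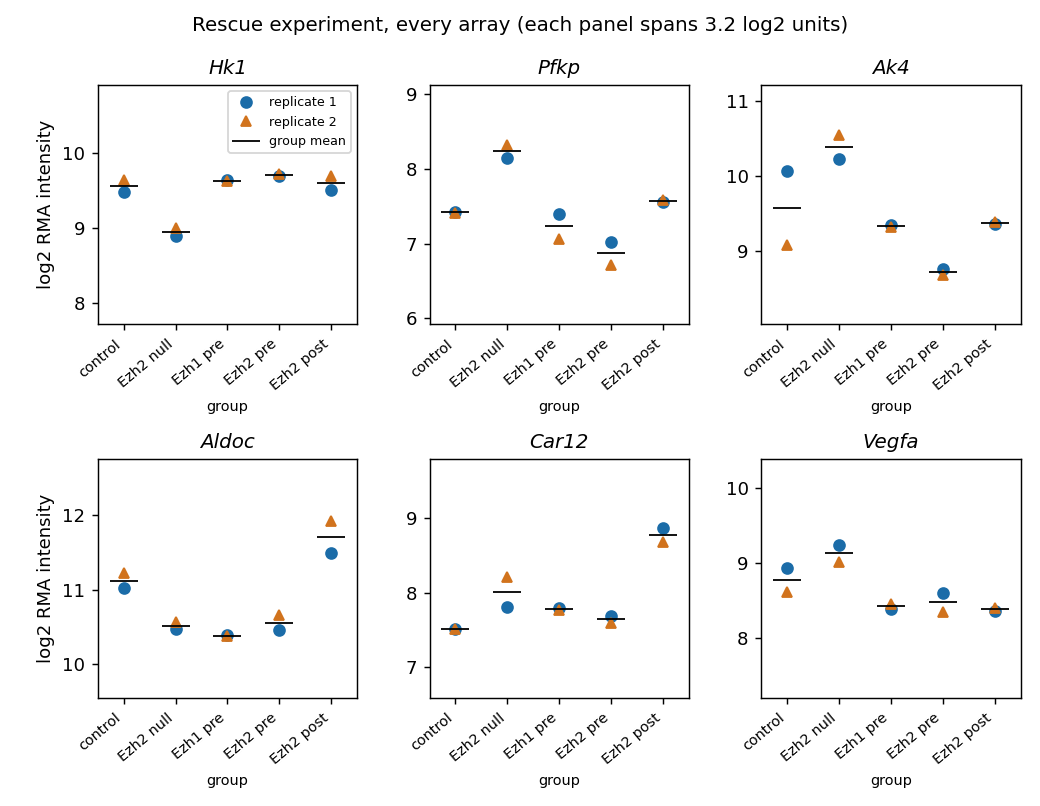
Log2 RMA intensity (vertical axis, each panel spanning the same number of log2 units) of 6 genes in each array of the rescue experiment, with a circle for replicate 1, a triangle for replicate 2 and a bar for the group mean. Hk1 is lower and Pfkp higher in Ezh2 null cells than in the other 4 groups, Aldoc and Car12 are highest in Ezh2 post-rescue cells, and the 2 control arrays of Ak4 lie apart, at 10.07 and 9.07.

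Cells given Ezh1 or Ezh2 before the deletion were compared first with control. In Ezh1 pre-rescue cells no member passed, 0.0106% of all genes were higher and 0% lower. In Ezh2 pre-rescue cells no member passed and 0% of all genes passed in either direction. At an unadjusted p under 0.05, limma passed 4 members with Ezh1 and 8 with Ezh2, beside 9.76% and 10.2% of all genes. These counts do not show that the cells were alike: the Aldoc difference from control was -0.74 ± 0.108 for Ezh1 (adjusted p = 0.156) and -0.56 ± 0.108 for Ezh2 (adjusted p = 0.230, limma), and that of Egln3 -0.39 ± 0.115 and -0.65 ± 0.115. Without control replicate 2, 1 member was called lower in each pre-rescue, Ak4, by a change of -0.78 with Ezh1 and -1.39 with Ezh2. The HIF subunits did not pass in either. Hif1a read 11.41 and 11.34 with Ezh1 against 11.30 and 11.32 with Ezh2, Epas1 6.84 and 6.96 against 6.65 and 6.84, and Arnt 10.77 and 10.78 against 10.79 and 10.74.

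Against Ezh2 null cells, Hk1 was higher and Pfkp and Vegfa lower in Ezh1 pre-rescue cells, so that 1 member was higher and 2 lower beside 0.861% and 1.44% of all genes. Pfkp read 7.39 and 7.06 in Ezh1 pre-rescue arrays, below both Ezh2 null arrays, a difference of -1.01 ± 0.131 (adjusted p = 0.0168, limma). Hk1 read 9.64 and 9.63, above both Ezh2 null arrays, with a difference of 0.68 ± 0.0818 (adjusted p = 0.0134). In Ezh2 pre-rescue cells the same 3 genes and Ak4 passed, 1 higher and 3 lower, beside 3.15% and 4% of all genes. Pfkp was at 7.02 and 6.72 (-1.37 ± 0.131, adjusted p = 0.00422, limma) and Hk1 at 9.70 and 9.73 (0.76 ± 0.0818, adjusted p = 0.00595). Ak4 was at 8.75 and 8.68, below both Ezh2 null arrays, with a difference of -1.67 ± 0.265 (adjusted p = 0.0177, limma). In Ezh1 pre-rescue arrays Ak4 read 9.34 and 9.31 and in Ezh2 post-rescue arrays 9.35 and 9.38, also below both Ezh2 null arrays, but these differences of -1.06 ± 0.265 and -1.03 ± 0.265 did not pass. The second Ak4 probe set differed by -1.06 in Ezh2 pre-rescue cells and did not pass (adjusted p = 0.0833). All these comparisons share the Ezh2 null arrays. Fibroblast markers were higher than in Ezh2 null cells for 2 of 8 genes with Ezh1 and 3 of 8 with Ezh2, by up to 0.87 and 0.95, and their part in these values was not tested.

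Vegfa differed from Ezh2 null cells in all 3 rescues. Its arrays read 8.93 and 8.62 in control and 9.24 and 9.01 in Ezh2 null cells. Those of the Ezh1 pre-rescue read 8.39 and 8.45, those of the Ezh2 pre-rescue 8.60 and 8.35 and those of the Ezh2 post-rescue 8.36 and 8.40. The 6 rescue arrays lay below the Ezh2 null arrays, and below both control arrays as well. The differences from Ezh2 null were -0.71 ± 0.111, -0.65 ± 0.111 and -0.75 ± 0.111 (adjusted p = 0.0288, 0.0207 and 0.0414, limma), and each call was lost without any 1 of its 4 arrays. All calls of Hk1, Pfkp and Ak4 in both pre-rescue comparisons also depended on single arrays. Ezh1 pre-rescue against Ezh2 null kept none without Ezh2 null replicate 2 or either Ezh1 pre-rescue array. Ezh2 pre-rescue against Ezh2 null had 7 without Ezh2 null replicate 1, 2 without Ezh2 null replicate 2, 1 without Ezh2 pre-rescue replicate 1 and none without Ezh2 pre-rescue replicate 2. It also had 7 without the replicate block, where Car9, Pfkfb3 and Tpi1 were added on the lower side, and 7 under quantile normalization, where Pfkfb3 and Tpi1 were added on the lower and Pfkfb4 on the higher side.

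Ezh2 given after the deletion was compared with both references. Against control, 1 member rose and none fell in Ezh2 post-rescue cells, beside 0.51% and 0.197% of all genes. This was Car12, which read 7.51 and 7.51 in control, 7.81 and 8.21 in Ezh2 null and 8.87 and 8.67 in Ezh2 post-rescue arrays. The Ezh2 post-rescue arrays lay above all others, and the change against control was 1.26 ± 0.137 (adjusted p = 0.00889, limma), 2.40-fold higher. It was lost without Ezh2 post-rescue replicate 1 (adjusted p = 0.144). Car9 read 8.91 and 8.66, above both control arrays, but its change of 0.93 ± 0.170 did not pass (adjusted p = 0.0705, limma). Egln3 read 7.43 and 7.42, below both control arrays, and did not pass at -0.69 ± 0.115 (adjusted p = 0.0532). Both passed without the replicate block, which made 2 members higher and 1 lower. In the Ezh1 pre-rescue and in its Ezh2 counterpart, Car12 read 7.79 and 7.77 and 7.69 and 7.60, Car9 8.06 and 8.19 and 7.66 and 7.55, and Egln3 7.72 and 7.72 and 7.53 and 7.40, none of them past the test against control. Pfkl arrays of the 3 rescues read 9.43 to 9.80 and its differences from control did not pass.

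Against Ezh2 null cells, Aldoc and Hk1 were higher and Vegfa lower in Ezh2 post-rescue cells, 2 and 1 members beside 0.191% and 0.409% of all genes. Aldoc read 11.49 and 11.92, above every other array of the experiment, and differed from Ezh2 null by 1.19 ± 0.108 (adjusted p = 0.0105, limma), 2.28-fold. The pre-rescue arrays did not show this: they read 10.39 and 10.38 with Ezh1 and 10.46 and 10.66 with Ezh2, below both control arrays. Hk1 read 9.51 and 9.70 and differed from Ezh2 null by 0.65 ± 0.0818 (adjusted p = 0.0240). Pfkp read 7.56 and 7.58, a difference of -0.67 ± 0.131 that did not pass (adjusted p = 0.0806, limma). The HIF subunits did not pass here, with Hif1a at 11.24 and 11.17, Epas1 at 6.61 and 6.69 and Arnt at 10.77 and 10.70. With either Ezh2 post-rescue array left out no member was called, without Ezh2 null replicate 1 there was 1, and Hk1 and Vegfa were lost without any 1 array. Quantile normalization and median centring ended the Vegfa call.

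Among the further hypoxia genes of the rescue experiment, 3 rose and 1 fell in Ezh2 null cells, with Arnt2 at 1.01 ± 0.105 and the nuclear receptor Rora at 1.15 ± 0.133, and Arnt2 also rose in Ezh2 post-rescue cells against control (0.66 ± 0.105). Of the gluconeogenesis genes Fbp1 fell in Ezh2 null cells (-1.96 ± 0.312, adjusted p = 0.0262, limma) and was higher in Ezh2 pre-rescue than in Ezh2 null cells (1.72 ± 0.312). No gene of the further glycolysis, citric acid cycle, respiratory chain or pentose phosphate lists passed between Ezh2 null and control cells. Against Ezh2 null, 1 of 19 citric acid cycle genes and 4 of 24 respiratory chain genes were lower in Ezh2 pre-rescue cells, beside 4% of all genes, with Cyc1 at -0.58 ± 0.0990. Quantile normalization gave 4 of 19 and 6 of 24 lower, and median centring 0 of 19 and 3 of 24.

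The change in Ezh2 null cells against control was set against that at day 32 against vehicle in a single fit over both experiments. The difference between these changes passed the test for 5 members, all of them with the higher value in Ezh2 null cells, beside 2.48% of all genes on that side and 5.64% on the other. Aldoc was lower by both measures, -0.60 in Ezh2 null cells and -1.74 at day 32, and the difference of these changes was 1.13 ± 0.163 (adjusted p = 0.00161, limma). Car9 was at 0.44 in Ezh2 null cells and -0.62 at day 32, a difference of 1.05 ± 0.268 (adjusted p = 0.0298). Egln3, P4ha2 and Slc2a1 differed by 0.71 ± 0.165, 0.51 ± 0.133 and 0.47 ± 0.123 (adjusted p = 0.0183, 0.0337 and 0.0348, limma). The experiments were normalized apart and differ in more than one way, so a difference in the effect of Ezh2 loss and a difference between the experiments cannot be told apart. Except for Aldoc, each of these calls was lost without at least 3 of the 8 arrays in turn. The count was 2 without vehicle replicate 2, 1 without day 32 replicate 1, 2 without day 32 replicate 2 and 3 without control replicate 1 or Ezh2 null replicate 2.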

How the data were processed

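RNA of C2 iMEFs was hybridised to Affymetrix Mouse Gene 1.1 ST arrays in duplicate. The deposited values are log2 intensities that the authors computed by RMA with oligo. For the rescue experiment their methods state a batch correction between first and second replicates with limma, and whether the deposited values carry it is not given. All 28440 probe sets were read, of which 21217 had a single gene symbol, 1881 several and 5342 none. Of those with a single symbol, 21184 matched RefSeq (GRCm38.p6) by gene ID. The probe set of highest mean was kept for each of 18820 genes, and 1386 genes had several. The members and the lists of further genes were chosen with earlier results of these data known.

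Differences were fitted by lmFit and eBayes in limma 3.58.1 (R 4.3.3) over all genes, with two-sided p-values adjusted by Benjamini and Hochberg and called under 0.05. The study's own ranking method was not run here. The time course was fitted on its 8 arrays without a block, and the rescue experiment on its 10 arrays with the replicate number as a block, after the stated batch. Replicate numbers did not pair the time course arrays, since their deviations from group means correlated at -0.07 to 0.055 over 6 pairs of groups. In the rescue experiment the same correlations ran from -0.429 to 0.544 over 10 pairs, so the block rests on the stated batch alone. The code was tested on simulated data. Array number limits the precision: each group had 2 arrays, with 4 residual degrees of freedom in each experiment.

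Named were all members, with array values for those called at 2-fold or more and for the HIF subunits, up to 3 genes of smallest adjusted p per further list, and the probe sets of Ezh2 and Ezh1. Alternatives were quantile normalization, median centring, a filter on dim genes, an intensity trend, the mean over a gene's probe sets, the block and leaving out each array. Use of a gene's other probe set was added after seeing the data. No outlier rule could be applied with 2 arrays a group.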

Additional observations from a re-analysis of the deposited data

Results flagged for a closer look

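Changes that differed between time points or experiments by their own test are given here with their values. The effect in Ezh2 null cells minus that at day 32 was 1.131 for Aldoc, 1.054 for Car9, 0.714 for Egln3, 0.508 for P4ha2 and 0.468 for Slc2a1 on the log2 scale. The P4ha2 call was lost under median centring, and the calls of all except Aldoc were lost with single arrays left out.

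Between day 18 and day 5, the change against vehicle was higher at day 18 by 1.873 for Aldoc, 1.238 for Pfkl, 1.105 for Ak4, 0.913 for Tpi1, 0.871 for Car12, 0.85 for Car9, 0.845 for Pgk1 and 0.793 for Pfkp. Smaller gains were 0.446 for Bnip3, 0.443 for Pdk1, 0.409 for Ankrd37, 0.386 for Pkm, 0.322 for Pgam1, 0.287 for Gys1, 0.275 for Ldha and 0.251 for Aldoa. The change was lower at day 18 for Hk1 (-0.646), P4ha2 (-0.439), Pfkfb3 (-0.359), Slc2a1 (-0.337) and Eno2 (-0.307).

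Between day 32 and day 18, Pfkfb3 (0.416) and Car12 (0.366) were higher and Aldoc (-0.977) was lower. The vehicle arrays are common to both sides of these differences and cancel in them.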

How the results depend on the processing

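The members gave 97 calls over all comparisons, and none reversed direction under any alternative run. A filter on dim genes and the mean over a gene's probe sets kept all 97, an intensity trend kept 96, quantile normalization 90 and median centring 87. With a gene's other probe set, 17 of 22 calls were kept. These counts include the Pgk1 and Pgam1 probe sets that gave the same changes as another, so not all are separate checks. Median centring moved the median of all genes to -0.154 at day 5, -0.18 at day 18, -0.137 at day 32 and -0.099 in Ezh2 null cells, and gave 26 members called at day 5 (3 higher and 23 lower). For Ezh2 post-rescue against control, quantile normalization and the intensity trend each gave 2 members (adding Aldoc), as did median centring (adding Egln3), and for Ezh2 pre-rescue against Ezh2 null quantile normalization gave 7. For Ezh2 post-rescue against Ezh2 null, median centring gave 3 higher and none lower and quantile normalization 2 and none.

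The replicate block was removed from the rescue experiment, where 19 of 20 calls were kept and Aldoc in Ezh2 null cells was lost (adjusted p = 0.0577, limma). Without the replicate block 3 members were called in Ezh2 post-rescue against control and 7 in Ezh2 pre-rescue against Ezh2 null. Added to the time course, where replicate numbers did not pair the arrays, it kept 76 of 77 calls.

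Each call was refitted once for each array of its comparison left out, and it was kept in 276 of these 408 refits. This is not the number of calls kept through every refit. The members called ranged from 13 to 17 at day 5, 13 to 16 at day 18, 13 to 19 at day 32, 13 to 17 between day 18 and day 5 and stood at 1 between day 32 and day 18. They ranged from 0 to 4 in Ezh2 null cells, 0 to 1 in each rescue against control, 0 to 3, 0 to 7 and 0 to 2 in Ezh1 pre-rescue, Ezh2 pre-rescue and Ezh2 post-rescue against Ezh2 null, and 1 to 5 for the difference between experiments. The arrays concerned are named beside each result. Where a group kept 1 array, that array was assumed to vary like the others. With 2 arrays a group, small changes could not be detected, and a member that did not pass is not shown to be unchanged.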
